A study of Gallus gallus with 6 samples.

Results

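The genes described here belong by name to families of the machinery that separates chromosomes in mitosis. These are kinesin motors, kinetochore and centromere proteins, checkpoint and mitotic kinases, the anaphase-promoting complex, cohesin, condensin and the centrosome. The names also took in 12 kinesins of transport or cilia, and genes such as PLK2 and STAG3 that are known for other roles. They were chosen by name, as the genes with symbols of these families (KIF, CENP, CEP, NCAP, ANAPC and others) in the table of genes that the authors called different between the stages. The rule found 97 genes, out of 8469 called genes and 19219 genes in the count table. Since only called genes entered, the values that chose the members are the same stage comparison that is given below, and their fold changes are a description with no test. Gene names were given for called genes only, so mitotic genes that were not called were not analysed here, and PLK1, AURKB, CDC20 and CCNB1 were not among the names. In a chicken reference annotation 165 symbols match the rule, and 70 of these were the symbol of no called gene.

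Mitotic cells condense their chromosomes with condensin, hold sister chromatids together with cohesin, and attach them to spindle microtubules at kinetochores, which are built on centromeric nucleosomes that hold the histone CENP-A. The spindle checkpoint delays anaphase until all kinetochores are attached. The anaphase-promoting complex then marks securin and cyclin B for destruction, and separase cuts cohesin. The bursa of Fabricius is the organ in which chicken B-cells proliferate in follicles before and after hatch.

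Bursal cells of Hy-Line W-36 embryos, a commercial layer line, were isolated on a density gradient at embryonic day 16 (ED16) and embryonic day 19 (ED19). There were 3 libraries per stage (ED16_1 to ED16_3 and ED19_4 to ED19_6), each from its own pool of bursas. The study states no sorting after the gradient, so the libraries could hold any cell that the gradient kept. Library totals ranged from 27087661 to 34614652 counts. In such bulk samples, fewer cells of a type and less RNA per cell cannot be told apart. Log2 fold changes were fitted with edgeR as ED16 over ED19 and are given with their standard error (SE), and a negative value is a higher level at ED19. Levels are in RPKM, read counts scaled to gene length and to the library total, as mean ± SD of n = 3 libraries.

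Most of the 97 genes were higher at ED19. In all, 78 were higher at ED19 and 19 at ED16, with a median log2 fold change of -1.13 and quartiles of -1.58 and -0.73. The median over all 13923 tested genes was 0.05. By edgeR's threshold 78 of the members were called higher at ED19, where 30.8% of all tested genes were, and 19 were called higher at ED16, where 35.6% of all tested genes were. Since the members came from a list of called genes, nothing is read from these shares. For 95 of the 97 members all libraries of one stage lay above all libraries of the other, as for 71.5% of all tested genes. The exceptions were CEP170B and ANAPC16.

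The median member was at 6.95, 8.16 and 7.36 RPKM in the ED16 libraries, and at 19.8, 20.4 and 14.1 RPKM in ED19_4, ED19_5 and ED19_6. Of all counts, members took 0.573% to 0.617% in the ED16 libraries and 1.07% to 1.24% in the ED19 libraries. The members that were higher at ED19 took 0.369% to 0.428% at ED16 and 0.951% to 1.14% at ED19. The members that were higher at ED16 moved the other way, from 0.189% to 0.204% of the counts at ED16 down to 0.102% to 0.118% at ED19. A difference of at least 2-fold was seen for 57 of the 78 and for 12 of the 19. Among all tested genes it was seen for 2502 of the 4287 called higher at ED19. For those called higher at ED16 it was seen for 3959 of 4953.

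**Figure D1:**
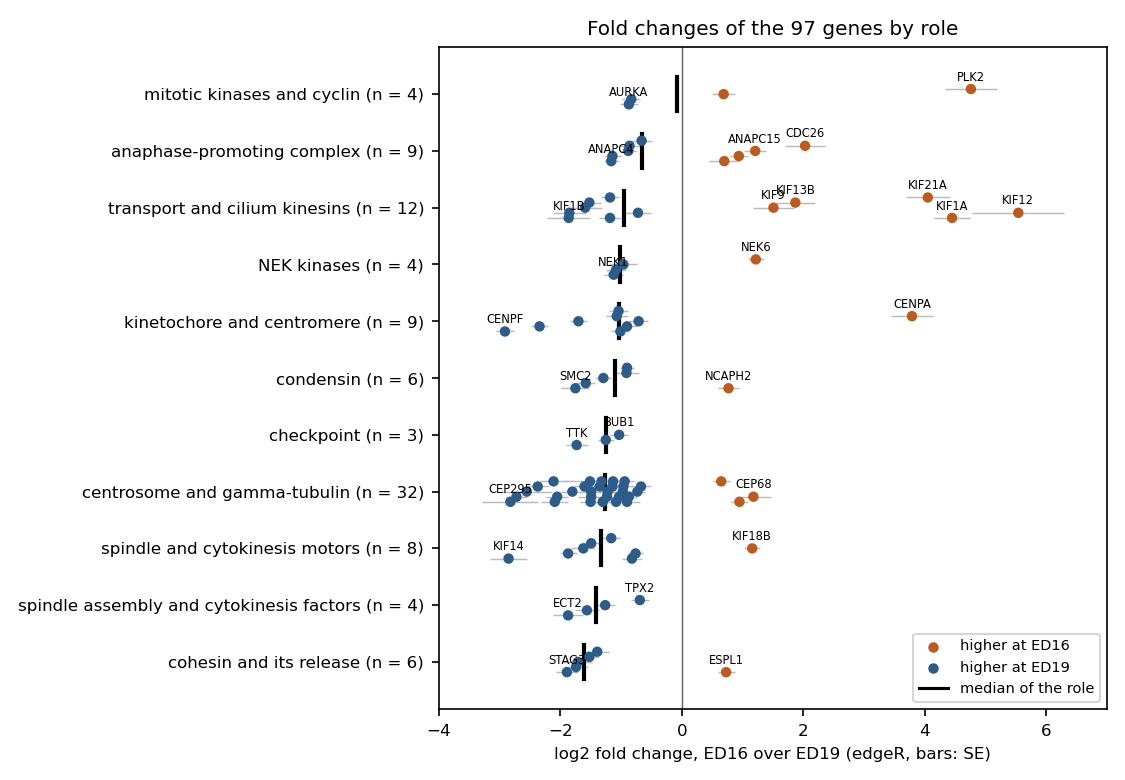
The log2 fold change of each of the 97 genes is plotted by role, with its SE as a bar and the median of each role as a black line. Most points of every role except the mitotic kinases and cyclin lie left of 0 (higher at ED19), and CENPA, PLK2 and 3 kinesins of the transport group lie beyond 3 on the ED16 side.

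Among the kinetochore and centromere genes, 8 of 9 were higher at ED19 and CENPA was the exception. CENPF (ENSGALG00000009690), a large protein of the outer kinetochore, was at 4.20, 4.60 and 3.96 RPKM at ED16 and at 33.0, 31.9 and 33.8 RPKM at ED19. It had the most negative fold change of all members (log2 fold change -2.91, SE 0.15, a 7.52-fold higher level at ED19). All ED19 libraries were close to each other and far above all ED16 libraries. CENPE, the kinesin motor of the kinetochore, followed with -2.34 (SE 0.14). CENPA, the histone H3 variant that marks centromeres, was at 188, 140 and 263 RPKM at ED16 and at 11.9, 12.8 and 19.1 RPKM at ED19. Its log2 fold change was 3.79 (SE 0.34, 13.9-fold). The ED16 libraries varied among themselves, yet the lowest of them was far above every ED19 library. The inner kinetochore genes CENPC, CENPI, CENPN and CENPQ, which bind to CENP-A nucleosomes or assemble on them, had values between -1.04 and -0.71.

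The CENPA gap was also seen inside each library, where no scaling between libraries enters. The level of CENPA was 11.8, 7.47 and 12.3 times that of CENPC in the ED16 libraries, and 0.291, 0.314 and 0.538 times that of CENPC in the ED19 libraries. HJURP, the chaperone that loads CENP-A and a gene outside the rule, was at 8.66 ± 0.227 RPKM at ED16 and 30.0 ± 11.5 RPKM at ED19. The direction of CENPA and of its loader thus differed. The gene length behind the CENPA value is 396 bases, the shortest of the members, against 2917 bases for CENPC. A dependence of the counts on gene length would therefore not cancel in this ratio. With a correction for gene length, given below, the CENPA log2 fold change was 2.96 (centred) or 2.43 (not centred).

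The Ndc80 complex binds kinetochores to microtubules. NDC80 was at 11.2 ± 0.906 RPKM at ED16 and 38.0 ± 6.23 RPKM at ED19 (log2 fold change -1.70, SE 0.14). NUF2, its direct partner, was at 54.7 ± 3.69 RPKM and 118 ± 14.5 RPKM (-1.07, SE 0.18). NUF2 was 4.97, 4.77 and 4.89 times NDC80 in the ED16 libraries and 2.64, 2.67 and 4.27 times NDC80 in ED19_4, ED19_5 and ED19_6. The ratio in ED19_6 was closer to the ED16 libraries than to the other ED19 libraries.

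All 3 checkpoint genes were higher at ED19. TTK, the kinase that starts the checkpoint at unattached kinetochores, was at 10.4, 12.6 and 13.1 RPKM at ED16 and 42.9, 50.7 and 31.4 RPKM at ED19 (-1.73, SE 0.18). BUB1B, part of the inhibitor of the anaphase-promoting complex, was at 22.9 ± 2.35 RPKM and 56.3 ± 7.95 RPKM (-1.25, SE 0.13). BUB1, a kinase that recruits BUB1B, was at 17.8 ± 2.22 RPKM and 37.8 ± 7.39 RPKM (-1.03, SE 0.15). The BUB1B to BUB1 ratio ran from 1.21 to 1.36 in the ED16 libraries and from 1.42 to 1.61 in the ED19 libraries, a small difference beside that of CENPA to CENPC. For the checkpoint genes ED19_6 was the lowest ED19 library each time.

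The mitotic kinases and cyclin were split. AURKA, the Aurora kinase of spindle poles, was at 51.1 ± 6.16 RPKM at ED16 and 95.8 ± 4.77 RPKM at ED19 (-0.87, SE 0.15). INCENP, the scaffold of the chromosomal passenger complex, was at 54.4 ± 3.63 RPKM and 99.5 ± 2.35 RPKM (-0.83, SE 0.15). CCNB3, a B-type cyclin, was at 234, 225 and 226 RPKM at ED16 and 126, 134 and 171 RPKM at ED19 (0.69, SE 0.19). It had the highest ED16 level of the members, and its ED19_6 library lay nearest to ED16. PLK2 carries a polo-like kinase name but is known for roles in stress and in neurons more than at the spindle. It was at 3.04, 4.81 and 2.28 RPKM at ED16 and at 0.200, 0.0660 and 0.115 RPKM at ED19 (4.76, SE 0.43). The median of these 4 genes, -0.07, changed sign between scalings and settings, so no direction is given for them as a group.

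Among the motors of the spindle and of cytokinesis, 7 of 8 were higher at ED19. KIF14, a motor of the midbody, was at 0.760, 0.916 and 0.761 RPKM at ED16 and at 7.61, 7.90 and 3.06 RPKM at ED19 (-2.85, SE 0.31). All ED19 libraries were above ED16, but ED19_6 was well below the other ED19 libraries. KIF11, the motor that pushes spindle poles apart, was at 33.4 ± 5.51 RPKM and 107 ± 26.8 RPKM (-1.62, SE 0.20). KIF15, which also acts on bipolar spindles, had -1.49 (SE 0.15), and the microtubule depolymerases KIF2A and KIF2C had -1.16 (SE 0.14) and -0.82 (SE 0.16).

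The sister kinesins KIF18A and KIF18B, which both act at microtubule plus ends, went in opposite directions. KIF18A was at 3.53, 4.01 and 4.23 RPKM at ED16 and 14.8, 15.8 and 13.9 RPKM at ED19 (-1.87, SE 0.14). KIF18B was at 47.4, 42.7 and 44.9 RPKM at ED16 and 22.1, 22.4 and 18.3 RPKM at ED19 (1.16, SE 0.13). Within a library, the level of KIF18B was 10.6 to 13.4 times that of KIF18A at ED16 and 1.32 to 1.5 times at ED19. Their gene lengths are 6293 bases for KIF18A and 3136 bases for KIF18B.

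**Figure D2:**
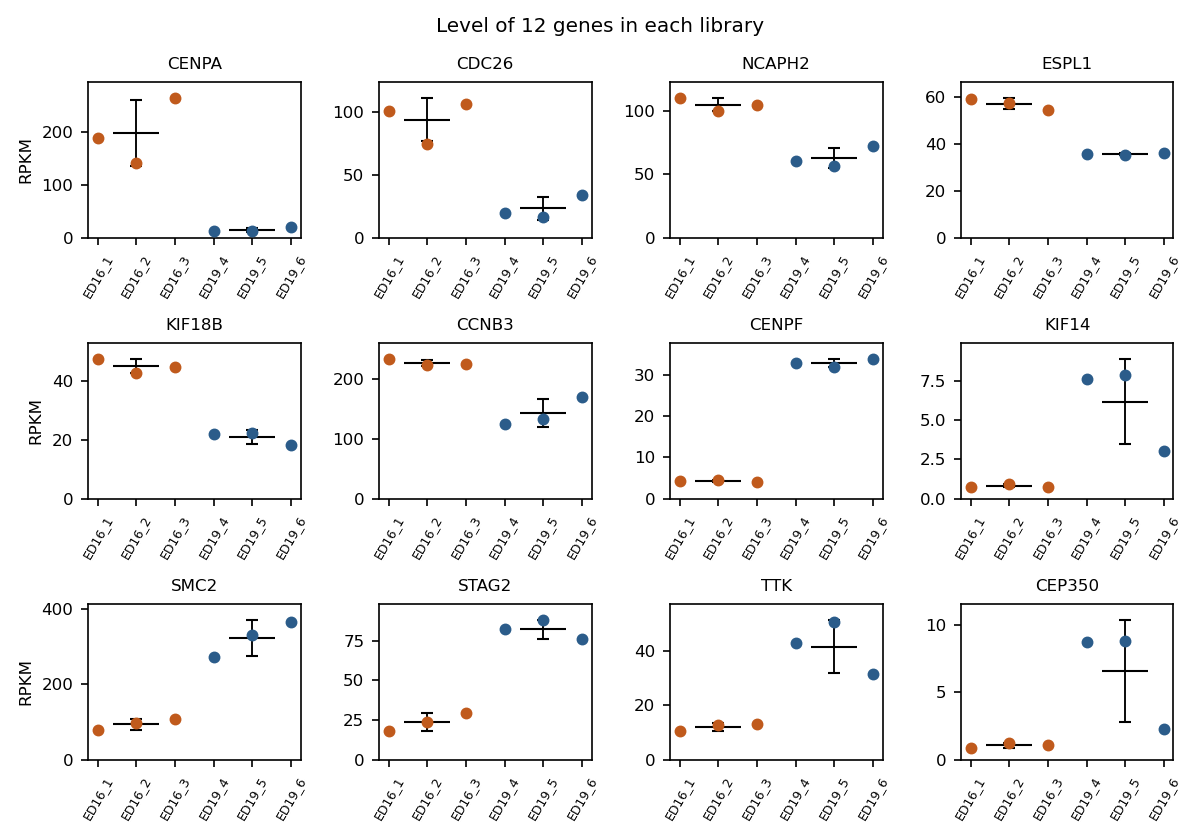
The RPKM of 12 genes is plotted in each of the 6 libraries, with ED16 in orange, ED19 in blue, and the mean and SD of each stage as bars. CENPA, CDC26, NCAPH2, ESPL1, KIF18B and CCNB3 are higher in all ED16 libraries, the other 6 genes are higher in all ED19 libraries, and ED19_6 falls below ED19_4 and ED19_5 for KIF14 and CEP350 but not for SMC2 or CENPF.

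Condensin and cohesin genes were mostly higher at ED19, 5 of 6 in each group. SMC2 (ENSGALG00000015691), the ATPase core shared by both condensins, had the highest ED19 level of all members. It was at 77.9, 96.6 and 107 RPKM at ED16 and at 271, 331 and 364 RPKM at ED19 (-1.75, SE 0.23). SMC4, its partner, was at 42.2 ± 3.03 RPKM and 107 ± 9.16 RPKM (-1.29, SE 0.13). SMC2 was 1.95 to 2.60 times SMC4 at ED16 and 2.38 to 3.78 times SMC4 at ED19, so these ranges overlapped.

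NCAPG2, a subunit of condensin II, was at 4.03 ± 0.355 RPKM at ED16 and 12.5 ± 2.91 RPKM at ED19 (-1.58, SE 0.16). NCAPD3, of the same complex, had -0.91 (SE 0.21), and NCAPG of condensin I had -0.90 (SE 0.12). NCAPH2, the kleisin that closes the condensin II ring, was the one condensin gene that was higher at ED16. It was at 110, 100 and 105 RPKM at ED16 and at 60.8, 56.5 and 71.9 RPKM at ED19 (0.77, SE 0.17). NCAPH2 was 6.82 to 8.11 times NCAPD3 at ED16, 1.90 and 1.64 times in ED19_4 and ED19_5, and 4.24 times in ED19_6.

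For cohesin, STAG2, a subunit that sits on the ring, was at 18.3, 23.4 and 29.3 RPKM at ED16 and at 82.3, 87.8 and 76.2 RPKM at ED19 (-1.74, SE 0.20). STAG1, the alternative subunit in the same place, was at 5.18 ± 0.490 RPKM and 17.8 ± 6.51 RPKM (-1.71, SE 0.24). STAG2 was 3.97 to 5.34 times STAG1 in the ED16 libraries and 3.78 to 7.18 times in the ED19 libraries, with no separation of the stages. STAG3, whose known role in mammals is in meiosis, was at 5.96 ± 0.963 RPKM and 23.1 ± 4.74 RPKM (-1.89, SE 0.18). SMC3, the ring subunit, was at 35.0 ± 5.11 RPKM and 94.1 ± 7.76 RPKM (-1.39, SE 0.19). SGOL1, the shugoshin that protects centromeric cohesin, had -1.52 (SE 0.14).

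ESPL1, the separase that cuts cohesin at anaphase, was the exception. It was at 59.3, 57.3 and 54.6 RPKM at ED16 and at 35.5, 35.1 and 35.9 RPKM at ED19 (0.73, SE 0.14). The level of ESPL1 was 4.21 to 4.94 times that of SGOL1 at ED16 and 0.923 to 1.01 times at ED19. With 6274 bases it is one of the long genes of the set.

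The anaphase-promoting complex was divided between its subunits, 5 higher at ED19 and 4 at ED16. The large scaffold ANAPC1 (-0.66, SE 0.17), ANAPC4 (-1.16, SE 0.12) and the repeat subunits CDC16 (-1.14, SE 0.14), CDC27 (-0.86, SE 0.18) and ANAPC7 (-0.88, SE 0.12) were higher at ED19. CDC26, a small subunit that stabilises CDC16, was at 101, 74.3 and 106 RPKM at ED16 and at 19.3, 16.5 and 33.9 RPKM at ED19 (2.03, SE 0.33). ANAPC15, needed to release the checkpoint inhibitor, was at 84.0 ± 6.51 RPKM and 37.2 ± 4.84 RPKM (1.21, SE 0.18). ANAPC2, the cullin of the catalytic core, was at 30.2 ± 1.51 RPKM and 16.1 ± 1.08 RPKM (0.94, SE 0.15).

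ANAPC16, another small subunit, was at 181, 163 and 187 RPKM at ED16 and at 90.6, 93.8 and 149 RPKM at ED19 (0.70, SE 0.25). On the normalized counts the stages overlapped through ED19_6, and the call was lost when any 1 of the other 5 libraries was left out. Without ED19_6 the log2 fold change was 1.02. ANAPC16 was 5.82 to 7.35 times ANAPC4 at ED16, 1.44 and 1.48 times in ED19_4 and ED19_5, and 2.70 times in ED19_6. The 4 subunits that were higher at ED16 have gene lengths of 726 bases (CDC26), 1072 bases (ANAPC16), 1187 bases (ANAPC15) and 2712 bases (ANAPC2). Those that were higher at ED19 have 1911 bases (ANAPC4), 2589 bases (CDC16), 3504 bases (ANAPC7), 3986 bases (CDC27) and 5940 bases (ANAPC1).

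**Figure D3:**
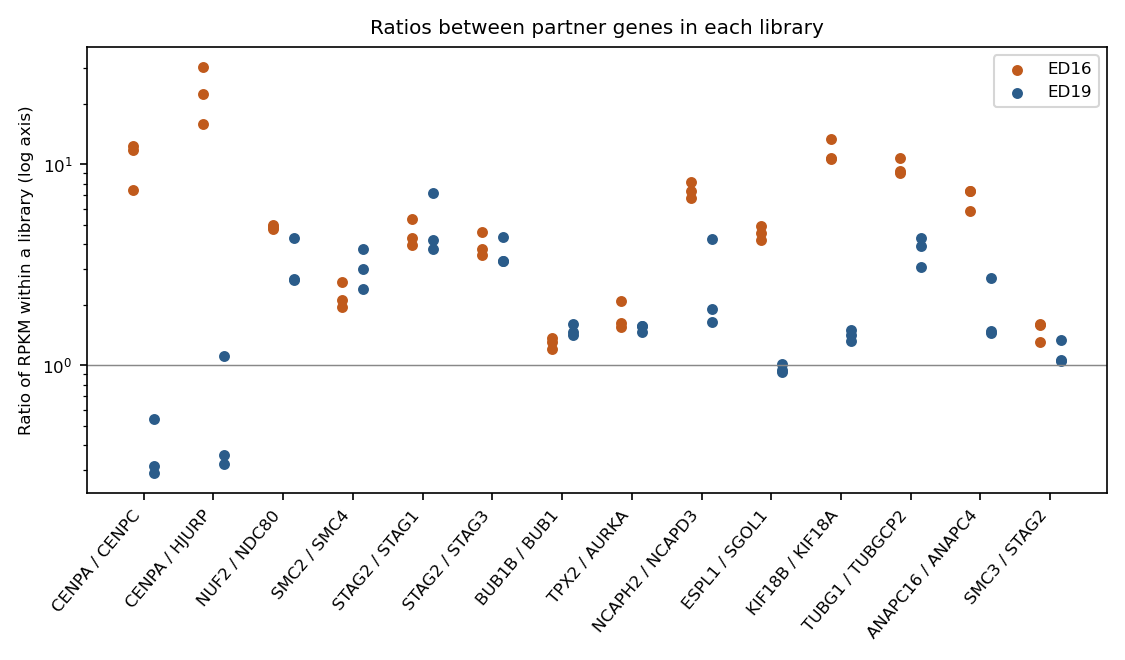
For 14 pairs of partner genes, the ratio of their RPKM is plotted for each library on a log axis, with ED16 in orange and ED19 in blue. The stages are far apart for pairs with CENPA, ESPL1, KIF18B and TUBG1, and they overlap for SMC2 to SMC4, STAG2 to STAG1 and TPX2 to AURKA.

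All 4 spindle assembly and cytokinesis factors were higher at ED19. ECT2, which activates RhoA at the cleavage furrow, was at 5.68, 6.88 and 5.90 RPKM at ED16 and at 28.2, 29.3 and 13.4 RPKM at ED19 (-1.87, SE 0.25). CEP55, which is needed for abscission, was at 11.3 ± 1.37 RPKM and 34.3 ± 4.88 RPKM (-1.56, SE 0.20). ANLN, the ring scaffold anillin, had -1.26 (SE 0.16). TPX2, the activator of Aurora A, was at 88.5 ± 5.85 RPKM and 147 ± 7.18 RPKM (-0.69, SE 0.15), and its ratio to AURKA ran from 1.54 to 2.09 at ED16 and from 1.46 to 1.57 at ED19. The pairs of genes set in ratios here were picked after their values were seen, except NDC80 with NUF2, SMC2 with SMC4, STAG1 with STAG2 and BUB1 with BUB1B.

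The centrosome group was the largest, with 29 of 32 genes higher at ED19 and a median log2 fold change of -1.26. Many of its members were at low levels: the median member was at 3.04 RPKM at ED16 and 9.91 RPKM at ED19. CEP290, a protein of centriolar satellites and the base of the cilium, was at 1.67, 1.95 and 2.06 RPKM at ED16 and at 12.8, 12.2 and 13.6 RPKM at ED19 (-2.72, SE 0.17). CEP295, needed to turn centrioles into centrosomes, was at 2.03, 2.73 and 1.58 RPKM at ED16 and at 22.2, 19.4 and 6.07 RPKM at ED19 (-2.82, SE 0.46). Its SE was among the highest, its ED19_6 level was much lower than the other ED19 levels, and the length behind it is only 426 bases. CEP350 was at 0.878, 1.23 and 1.05 RPKM at ED16 and at 8.71, 8.78 and 2.24 RPKM at ED19 (-2.55, SE 0.42), again with ED19_6 between the stages.

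The genes of centriole duplication were on the same side. CEP152 and CEP192, which recruit the duplication kinase PLK4, had -1.80 (SE 0.18) and -1.30 (SE 0.20), PLK4 itself had -0.96 (SE 0.16), and CENPJ and CEP135, which build the centriole wall, had -1.50 (SE 0.17) and -2.05 (SE 0.18). The γ-tubulin ring complex nucleates microtubules. Its members TUBGCP2, TUBGCP3, TUBGCP5 and TUBGCP6 had values between -1.22 and -0.73, while TUBG1, the γ-tubulin that they hold, was at 136, 129 and 137 RPKM at ED16 and at 84.1, 89.7 and 90.5 RPKM at ED19 (0.65, SE 0.14). TUBG1 was 9.08 to 10.7 times TUBGCP2 at ED16 and 3.07 to 4.27 times at ED19. The other centrosome genes that were higher at ED16 were CEP68 (1.18, SE 0.29) and CEP131 (0.95, SE 0.14).

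By the authors' adjusted p, CEP170B and CEP57 were the members nearest to the threshold from inside. CEP170B was at 0.818, 1.09 and 0.781 RPKM at ED16 and at 3.83, 3.39 and 0.892 RPKM at ED19 (-1.51, SE 0.43), so ED19_6 lay among the ED16 libraries. CEP57 was at 8.31 ± 0.405 RPKM and 13.8 ± 2.99 RPKM (-0.67, SE 0.17). Genes just outside the threshold carried no name in the tables and cannot be given.

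Of the NEK kinases, which act on centrosomes and cilia, NEK1 (-1.12, SE 0.16), NEK4 (-1.08, SE 0.16) and NEK9 (-0.96, SE 0.23) were higher at ED19. NEK1, known for its role at primary cilia, was at 2.91 ± 0.400 RPKM at ED16 and 6.49 ± 0.158 RPKM at ED19. NEK9, which activates NEK6 in mitosis, was at 12.6, 14.1 and 12.5 RPKM at ED16 and at 32.6, 32.4 and 15.1 RPKM at ED19. NEK6 was at 20.8, 24.1 and 19.8 RPKM at ED16 and at 10.3, 10.2 and 8.32 RPKM at ED19 (1.22, SE 0.13). The activator and its target thus moved in opposite directions between the stages.

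The kinesins with a known role in transport or cilia held the members farthest on the ED16 side, although 7 of these 12 genes were higher at ED19. KIF12, best known from mouse kidney, had 30, 17 and 19 counts at ED16 and 0, 1 and 0 counts at ED19. Over each stage this was 66 counts against 1 count. After scaling, their ratio was 63.8, with an exact 95% interval from 11.1 to 2556 that covers counting error only. The edgeR log2 fold change of KIF12 was 5.54 (SE 0.76, 46.5-fold). KIF1A, a carrier of synaptic vesicle precursors in neurons, was at 4.17, 2.89 and 2.54 RPKM at ED16 and at 0.196, 0.155 and 0.102 RPKM at ED19 (4.45, SE 0.29). KIF21A had 260, 191 and 166 counts at ED16 and 17, 14 and 5 counts at ED19 (4.05, SE 0.36). KIF13B (1.87, SE 0.32) and KIF9 (1.51, SE 0.34), a motor of motile cilia, were below 1 RPKM in every library.

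These 5 kinesins were low, and ED16_1 or ED16_2 was their highest library. Among them KIF12, KIF1A, KIF21A and KIF9 were highest in ED16_1. KIF5B, the conventional kinesin heavy chain, had -1.52 (SE 0.19), and KIF3A, a motor of cilium assembly, had -1.18 (SE 0.15). KIF5C, which had the highest ED16 level of the group, was at 12.1 ± 1.70 RPKM at ED16 and 20.9 ± 6.22 RPKM at ED19 (-0.72, SE 0.21), where KIF5B was at 21.5 ± 5.99 RPKM.

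Markers of cell types were looked up by name, and names were given for called genes only. A marker that was not called could therefore not be found, and the counts below are a description. Of all tested genes, 35.6% were called higher at ED16 and 30.8% at ED19. Of the listed epithelial markers 7 of 9 were found by name, all 7 higher at ED16, and their summed level was 135 to 295 RPKM at ED16, highest in ED16_1, and 5.28 to 6.45 RPKM at ED19. Kidney markers (6 of 12 found, all higher at ED16) summed to 68.6 to 210 RPKM at ED16, again highest in ED16_1, and to 0.213 to 0.343 RPKM at ED19, with 2 of the 6 at 0 counts in all ED19 libraries. T-cell markers (7 of 8 found, all higher at ED16) summed to 266 to 349 RPKM at ED16 and 125 to 214 RPKM at ED19, and erythroid markers (3 of 8 found, all higher at ED16) to 2796 to 4190 RPKM and 109 to 195 RPKM. The B-cell markers found by name, BLNK, BACH2 and TNFRSF13C, were all higher at ED19, with a sum of 131 to 155 RPKM at ED16 and 282 to 408 RPKM at ED19. The share of these cell types in the difference of any kinesin or other member was not tested.

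Fibroblast markers (6 of 9 found) summed to 17.7 to 20.6 RPKM at ED16 and 3.96 to 5.75 RPKM at ED19. Granulocyte and macrophage markers (5 of 8 found, 4 called higher at ED16) summed to 159 to 170 RPKM at ED16 and 272 to 278 RPKM at ED19. This sum followed the 1 marker called higher at ED19 (log2 fold change -0.88), while the median log2 fold change of the 5 was 2.79. Endothelial markers (7 of 7 found, 5 called higher at ED16) summed to 7.03 to 9.85 RPKM and 3.98 to 13.5 RPKM, with 2 of the 7 at 0 counts in all ED19 libraries. Of the cilium markers only CCDC39 was found, with a level of 0.0987 to 0.123 RPKM at ED16 and 0.148 to 0.649 RPKM at ED19.

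Direction went with gene length among the members. Of the 16 members under 2000 bases, 8 were higher at ED16, of the 46 members from 2000 to below 5000 bases 6 were, and of the 35 members of 5000 bases or more 5 were. Over all tested genes the shares higher at ED16 were 63.6%, 40.5% and 37.3% in the same length ranges. Across the 97 members the log2 fold change and the log2 gene length had a Pearson r of -0.30 and a Spearman rho of -0.35, and across all 13923 tested genes of -0.16 and -0.27. Without the transport and cilium kinesins and PLK2, a subset taken after seeing the values, r was -0.52 and rho -0.47 over 84 members. These are descriptions across genes, which share libraries and are not independent. KIF1A, KIF21A, KIF13B, PLK2 and ESPL1 are long genes that were higher at ED16. When the counts of each library were corrected for gene length by a loess curve and centred, a step added after seeing the data, CENPA had a log2 fold change of 2.96, CDC26 of 1.40, and the member median was -0.83. With the same correction not centred, which also moved the median of all tested genes to -0.47, CENPA had 2.43, CDC26 0.86, and the member median was -1.36.

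**Figure D4:**
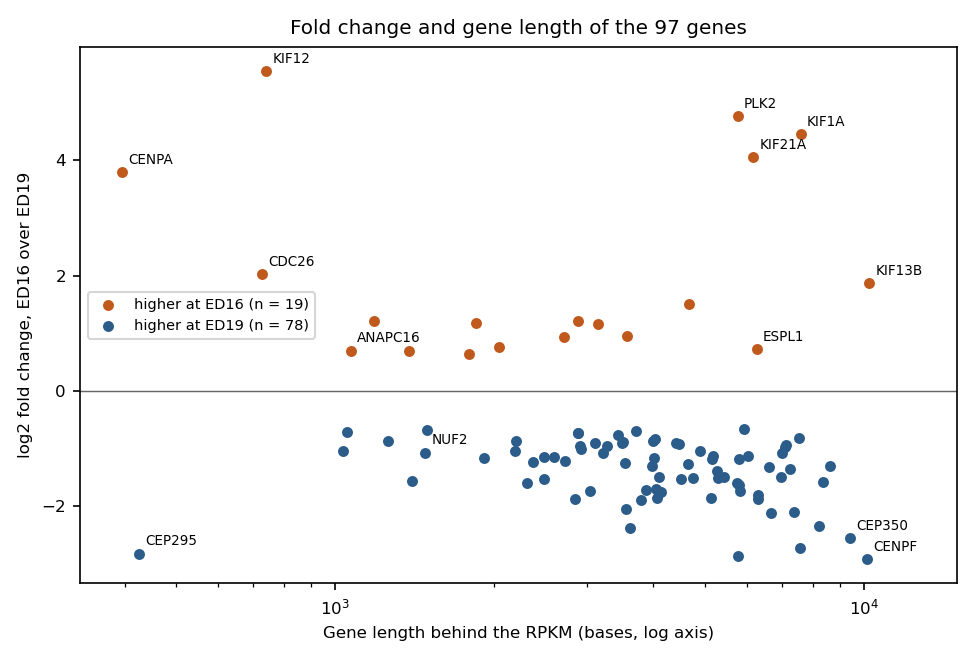
The log2 fold change of each of the 97 genes is plotted against its gene length on a log axis, with members that were higher at ED16 in orange and at ED19 in blue. Members under 2000 bases are split 8 to 8 between the stages, whereas among longer members blue points prevail, and CEP295 at 426 bases is a short gene on the ED19 side.

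Library ED19_6 stood apart from ED19_4 and ED19_5 for many members. It was lower than both for 55 of 97 members (56.7%), against 44.4% of all tested genes. It was the ED19 library nearest to ED16 for 58 of 97 members (59.8%), against 51.9% of all tested genes. The median log2 ratio of ED19_6 to the mean of the other ED19 libraries was -0.14 over the members and -0.02 over all tested genes. This ratio went with gene length. Under 2000 bases, the median was 0.28 for members and 0.22 for all tested genes. From 2000 to below 5000 bases it was -0.21 and -0.1, and at 5000 bases or more -0.23 and -0.44. Under 2000 bases lay 16 of the 97 members but 6756 of the 13923 tested genes. The shares above thus compare genes of unlike length. On the deposited RPKM, which are scaled to the library total, 68 members were lower in ED19_6 and the median was -0.36, while 55.3% of all tested genes were lower and their median was -0.24. For 8 members ED19_6 was at least 2-fold lower, among them CEP170B (log2 ratio -1.80), CEP350 (-1.75), CEP295 (-1.56), KIF1B (-1.41) and KIF14 (-1.13). KIF21A (-1.22) was also among them, but it was higher at ED16, so its ED19_6 value lay farther from ED16. In the other direction, 33 members were higher in ED19_6 than in both other ED19 libraries, 23 of them members that were higher at ED19. CDC26 (1.14), ANAPC16 (0.91) and CENPA (0.85), which were higher at ED16, were also among the 33.

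Some cell type marker sums differed in this library too. The 3 B-cell markers summed to 401, 408 and 282 RPKM in ED19_4, ED19_5 and ED19_6, all 3 being lowest in ED19_6. BACH2, a transcription factor of B-cells, was at 42.7, 47.5 and 9.74 RPKM. BLNK was at 303, 304 and 232 RPKM, and TNFRSF13C at 55.1, 56.2 and 40.4 RPKM. The 7 T-cell markers summed to 137, 125 and 214 RPKM, though CD3E among them was at 5.22, 5.13 and 4.82 RPKM. The endothelial sum was 13.5, 9.3 and 3.98 RPKM. By contrast, the granulocyte and macrophage sum was 278, 274 and 272 RPKM, and the erythroid sum 195, 109 and 153 RPKM. The part of these cell types in the ED19_6 values of the members was not tested.

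ED19_6 was above every ED16 library for 77 of the 78 members that were higher at ED19, CEP170B being the exception. ED19_6 was part of the comparison that chose the members, so this count could follow from that choice, and nothing is read from it. Of all tested genes, 71.5% had each library of one stage above each library of the other, counting both directions. Without ED19_6 the member median was -1.20. Within ED16, ED16_1 was the lowest library for 54 of the 78 members that were higher at ED19, and the highest for 10 of the 19 that were higher at ED16. Over all 13923 tested genes, ED16_1 was the lowest ED16 library for 4998 and the highest for 4753. Leaving out both ED16_1 and ED19_6, an alternative added after seeing the data, gave a member median of -1.14.

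**Figure D5:**
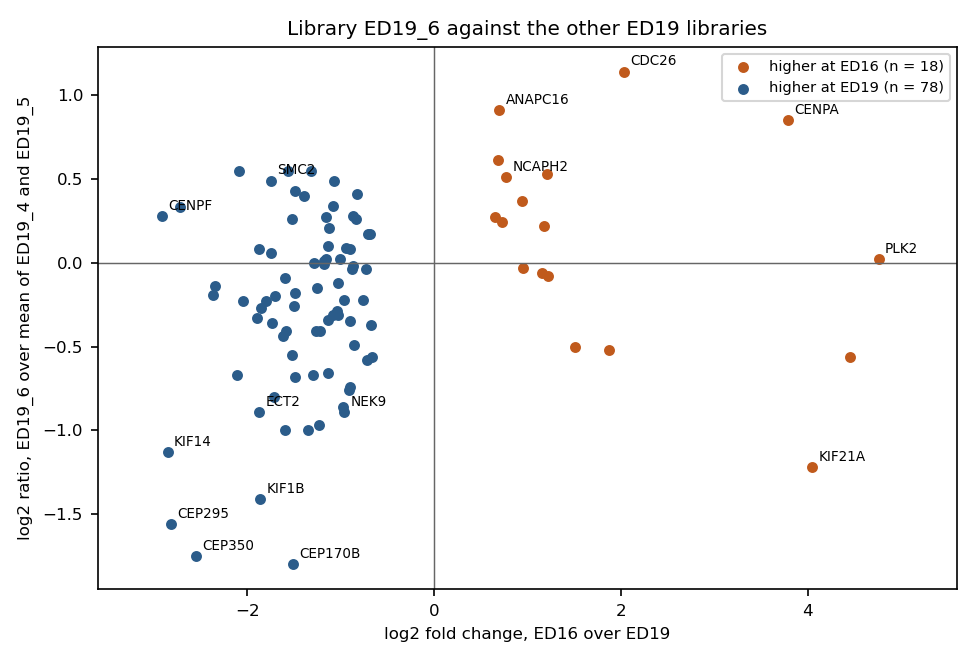
For 96 members (KIF12 had no count in ED19_6), the log2 ratio of ED19_6 to the mean of ED19_4 and ED19_5 is plotted against the log2 fold change between the stages. Genes at the lower left, such as CEP170B, CEP350, CEP295, KIF1B and KIF14, and at the upper right, such as CDC26, ANAPC16 and CENPA, are examples of members in which ED19_6 lay on the ED16 side of the other ED19 libraries, whereas CENPF and SMC2 lie above 0 on the left.

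Most listed mitotic genes found outside the rule were also higher at ED19. From a list of 100 such genes, 47 were found by name among the called genes, 44 of them called higher at ED19 and 3 at ED16, with a median log2 fold change of -1.36. Over all tested genes the shares were 30.8% and 35.6%. As with the members, only called genes could be found, so the counts are a description. MKI67, the proliferation marker Ki-67, was at 42.3, 50.1 and 52.6 RPKM at ED16 and at 220, 245 and 115 RPKM at ED19 (-1.93, SE 0.25). TOP2A, the topoisomerase that untangles chromatids, was at 82.5 ± 8.37 RPKM and 177 ± 34.5 RPKM (-1.04, SE 0.17). RAD21, the cohesin kleisin that separase cuts, was at 89.3 ± 10.1 RPKM and 243 ± 20.2 RPKM (-1.39, SE 0.16), opposite to ESPL1.

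The genes of this list that were higher at ED16 were UBE2C (0.75, SE 0.26), the ubiquitin-conjugating enzyme that works with the anaphase-promoting complex, KIFC1 (0.92, SE 0.18), a minus-end spindle motor, and RCC1 (1.11, SE 0.16), the Ran activator on chromatin. UBE2C was at 383, 350 and 370 RPKM at ED16 and at 180, 180 and 304 RPKM at ED19, with ED19_6 nearest to ED16 as for CDC26 and ANAPC16. KIFC1 was at 266 ± 25.9 RPKM and 145 ± 15.5 RPKM. The cell cycle genes CKS1B (2.06, SE 0.26) and CCND3 (1.18, SE 0.21) and the tubulin gene TUBB (2.26, SE 0.26) were not on the list. They were higher at ED16 as well, but they belonged to no list set in advance and are single examples.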

How the data were processed

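Poly-A RNA of 6 libraries was sequenced. The authors aligned reads to galGal4 with TopHat2 2.0.12, counted reads per gene with HTSeq, and deposited the raw count of each gene. The authors deposited RPKM values, which divide the count by gene length and by the library total; gene lengths were taken from that relation and came out whole for all 17458 genes with a value. The deposited table of called genes, from DESeq, holds the authors' fold changes and adjusted p-values. Its names selected the members, its p-value was used only to order the members nearest to the threshold, and its fold changes were not used. Per the labels the DESeq version was 1.10.1, while the methods of the study give another. The study gives a lower mean RNA integrity for the ED16 pools than for the ED19 pools. It also gives a higher GC content of the reads and a lower mapped share of reads for every ED16 library than for every ED19 library. These differences coincide with the stages, and their part in the values given here was not tested.

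Counts were fitted in edgeR 4.0.16 (R 4.3.3) with filterByExpr, TMM scaling and the quasi-likelihood test, ED16 against ED19, with Benjamini-Hochberg adjustment over all 13923 tested genes and a threshold of 0.05. All 97 members passed the filter. The SE of a log2 fold change was derived from its size and from the F statistic of its test. Replicates were separate pools of bursas, so spreads are between pools. With 3 counts as the floor, the smallest share of a library was 8.67e-06% to 1.11e-05%, for counting error only. In a simulation from the mean levels and library totals of these data (13843 genes tested, 200 of them altered), edgeR recovered 87.0% of the altered genes. The simulation had the same dispersion for all genes, few altered genes, no trend with gene length and no library that stood apart. It thus does not cover these features of the data.

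The members, the role groups, the lists of other genes and the tests were chosen with earlier results of these data known. Levels were given, per role, for the 2 members with the largest absolute log2 fold change and the 1 with the highest RPKM, for members against most of their role (not in the transport, centrosome and NEK groups), for the 2 members nearest to the authors' threshold, and for paired subunits, which took in 42 members. Library values of CEP350 and KIF21A were added after they were seen. Alternatives were upper-quartile scaling, DESeq2 1.42.0, limma 3.58.1 on log2(RPKM + 1), the absence of a filter, a minimum of 10 counts per library, a loess curve on gene length (span 0.5), the omission of each library in turn, a fold change of at least 2 and an adjusted p below 0.01.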

Additional observations from a re-analysis of the deposited data

How the results depend on the processing

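Across all alternatives the members' median stayed negative and most members stayed higher at ED19. The median was -0.92 with upper-quartile scaling, -1.36 with the gene length correction and -0.83 with that correction centred (added after seeing the data), and -1.20 to -1.07 when each library was left out. These scalings also moved the median of all tested genes from 0.05 to 0.26 (upper-quartile) and -0.47 (gene length, reversed). Relative to that median the members stayed lower in each. This is a description only, since the members were chosen from genes called in the same stage comparison. The all-gene median was 0.24 with no filter, 0.22 with DESeq2 and -0.04 (reversed) with at least 10 counts in every library, which dropped KIF12 and KIF21A. The gene length correction that was not centred moved the share of calls that were higher at ED16 from 53.6% to 33.9%. It called 6476 genes higher at ED19 in place of 4287. With the centred correction the share was 54.1%, and 4070 genes were called higher at ED19. Without the correction, a fold change of at least 2 left 2502 of the 4287 genes called higher at ED19. It left 3959 of the 4953 genes called higher at ED16. Of the members it left 57 of the 78 higher at ED19 and 12 of the 19 higher at ED16. The other mitotic genes called higher at ED16 fell from 3 to 1 with the gene length correction, and to 2 with that correction centred. With a fold change of at least 2 they also fell to 1. Their median was -1.16 (upper-quartile), -1.59 (gene length) and -1.06 (centred).

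ANAPC16 (-0.23) and CCNB3 (-0.02) reversed with the gene length correction not centred and with no other setting run. ANAPC15, CEP68, NCAPH2 and TUBG1 then lost their calls as well. With the correction centred, ANAPC16 had 0.31 and was not called. CCNB3 (0.52), ANAPC15 (0.90), CEP68 (1.16), NCAPH2 (0.83) and TUBG1 (0.61) then kept their calls. The median of the mitotic kinases and cyclin reversed to 0.14 (upper-quartile), 0.06 (at least 10 counts), 0.05 (centred gene length) and 0.07 (without ED16_1 and ED19_6), and ran from -0.18 to 0.05 when each library was left out. Calls lost elsewhere were KIF5C with upper-quartile scaling and without ED16_1, CEP170B with limma, without ED16_1 and without ED16_3, and, with the centred correction, ANAPC1, ANAPC16, CEP120, KIF2C, KIF5C and TPX2. The correlation with gene length was -0.37 with limma, and the ED19_6 median was -0.36 on the deposited RPKM. The cause of these changes was not tested. The correction for GC content and the promoter motifs were not run, since no sequence was used here. No paired analysis was possible because the libraries of the stages share no replicate numbers. At 3 libraries per stage, KIF12 (SE 0.76) and CEP295 (SE 0.46) were the least precise of the members described.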

Other observations

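Some loci that carry no gene symbol are described in the authors' table as spindle proteins. A pair of short loci described as KIF20B, a motor of cytokinesis, had 26, 31 and 42 counts at ED16 against 158, 138 and 86 counts at ED19 (log2 fold change -1.96, SE 0.32), and 26, 42 and 42 counts against 230, 261 and 179 counts (-2.64, SE 0.31). A locus described as like spindle and kinetochore-associated protein 1, which couples kinetochores to microtubule ends, had 5432, 4186 and 5601 counts at ED16 and 1583, 1148 and 1938 counts at ED19 (1.60, SE 0.27). A locus described as carboxy-terminal kinesin 1 had 2010, 1460 and 1547 counts at ED16 and 611, 456 and 897 counts at ED19 (1.23, SE 0.31). The last 2 loci have lengths of 443 and 559 bases, and the KIF20B loci, which were higher at ED19, of 803 and 786 bases. All of these lie under 2000 bases, the length range in which most tested genes were higher at ED16.

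Of the 27 called genes that the authors' table annotates with a kinesin motor domain, 21 are members. The other 6 are KIFC1, KIFC3 and 4 loci with no name, of which 1 was higher at ED16 and 3 at ED19. KIFC3, a minus-end kinesin outside the spindle group, was at 2.39 ± 0.584 RPKM at ED16 and 0.288 ± 0.0320 RPKM at ED19 (3.09, SE 0.29), a pattern near that of KIF1A and KIF21A. These loci were picked after their values were seen.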
